A study of Mus musculus with 6 samples.

Results

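The 7 complex I genes of the mitochondrial genome, mt-Nd1, mt-Nd2, mt-Nd3, mt-Nd4l, mt-Nd4, mt-Nd5 and mt-Nd6, were followed in mouse hearts with and without Trdn-as, a long non-coding RNA named as the antisense partner of Trdn (triadin). They were chosen by gene identifier, not by their values, and all 7 were found among the 20254 genes of the table. RNA came from 6 C57BL/6 mouse hearts, 3 labelled wild-type (WT) and 3 labelled Trdn-as knockout (KO). In each genotype, replicates 1 and 2 were 14 months old and replicate 3 was 5 months old, so that each genotype had 1 library at 5 months. The labels give neither the way the knockout was made nor whether each library is a separate animal.

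Complex I, or NADH:ubiquinone oxidoreductase, is the entry point of electrons from NADH into the respiratory chain, and in heart muscle it supports the continuous demand for ATP. Its core is built by both genomes: the hydrophobic membrane arm is encoded in mitochondrial DNA, and the matrix arm with the iron-sulphur clusters is encoded in the nucleus. Mitochondrial DNA is transcribed from both strands as long precursors, which are cut into single RNAs mostly at the tRNAs that lie between the genes. Genes of 1 strand therefore start from a shared precursor, and their mature levels also depend on how long each RNA lasts.

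In the annotation 6 of the 7 genes lie on the plus strand of the mitochondrial chromosome (mm10), and mt-Nd6 lies on the minus strand. The order from the start of the chromosome is mt-Nd1 (2751 to 3707), mt-Nd2 (3914 to 4951), mt-Nd3 (9459 to 9806), mt-Nd4l (9877 to 10173), mt-Nd4 (10167 to 11544), mt-Nd5 (11742 to 13565) and mt-Nd6 (13552 to 14070). The genes for complexes III, IV and V lie between mt-Nd2 and mt-Nd3 or, for mt-Cytb, after mt-Nd6. Each is annotated as 1 exon that holds the coding sequence and, except in mt-Nd4, the stop codon. The strand shows in the bases: mt-Nd6 was 28.1% G and 5.97% C, while the other 6 had at most 11.6% G and at least 22.1% C.

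Short stretches of sequence bear on how these genes can be told apart. The end of mt-Nd4l and the start of mt-Nd4 share 7 bases (10167 to 10173), given here in capitals because a read across them belongs to both genes. The last 14 bases of mt-Nd5 and mt-Nd6 (13552 to 13565) are the reverse complement of each other. Without strand information those bases alone cannot be given to one of the genes. The library's strand setting is not given in the sources used here. All sequences are from the GENCODE M21 transcripts (GRCm38, the same build as mm10), written 5′ to 3′.
mt-Nd4l, chrM:10144-10173, plus strand: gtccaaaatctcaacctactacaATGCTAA
mt-Nd4, chrM:10167-10196, plus strand: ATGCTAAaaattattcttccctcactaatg
mt-Nd5, chrM:13536-13565, plus strand: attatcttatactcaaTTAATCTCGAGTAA
mt-Nd6, chrM:13552-13581, minus strand: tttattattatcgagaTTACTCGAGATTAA

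mt-Nd4l, one of the members that differed between the ages, is the shortest of the 7 and is shown whole, with the bases shared with mt-Nd4 in capitals. A nuclear copy on chromosome 1, Gm10222 (24612407 to 24612700), is identical to its first 294 bases.
mt-Nd4l, chrM:9877-10173, plus strand: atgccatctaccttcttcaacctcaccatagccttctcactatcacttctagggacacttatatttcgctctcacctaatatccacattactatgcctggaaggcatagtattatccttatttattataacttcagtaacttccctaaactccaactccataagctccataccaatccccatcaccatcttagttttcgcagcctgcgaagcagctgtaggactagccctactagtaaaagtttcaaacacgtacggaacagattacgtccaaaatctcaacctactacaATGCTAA

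The values analysed were a gene-level signal scaled between libraries by the authors, with totals of 19.8 to 23.5 in units of 1e6. They are not counts, so the depth behind them is unknown and no counting interval can be given. Trdn was at 5702, 5600 and 9104 in the WT libraries and at 3429, 3460 and 5606 in those of KO, and Trdn-as itself was not analysed here. Y-linked genes summed to between 2652 and 4775 in replicates 1 and 3 and to 213 and 273 in replicate 2 of WT and KO, so neither 5-month library had the low sum. Cardiac muscle markers (6 genes) were present at sums of 478894 to 987987. p-values measure only the spread between these 6 samples.

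The 7 genes together made up 15.5, 15.2 and 12.5% of all values in WT replicates 1, 2 and 3 and 17.3, 15.5 and 13.9% in KO. Every 14-month library lay above both 5-month libraries, and the genotypes overlapped. Of the values of the 13 mitochondrial mRNAs, the 7 genes held 34.1, 34.3 and 31.3% in WT and 35.0, 34.4 and 33.3% in KO. Their part of the mitochondrial mRNAs thus spanned 31.3 to 35.0% over all libraries. The mitochondrial mRNAs took 44.3 to 49.4% of all values at 14 months and 40.0 and 41.6% at 5 months. When nuclear copies of mitochondrial genes were counted with them, these shares were 46.2 to 51.3% and 43.9 and 44.5%.

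Levels were compared between genes only as value per kb of gene length. mt-Nd4 and mt-Nd1 were highest, with means over the 6 libraries of 695196 and 671615 per kb, followed by mt-Nd2 (525617), mt-Nd4l (447927), mt-Nd5 (354291), mt-Nd6 (271172) and mt-Nd3 (211194). In SDs over the 6 libraries these carried 102145, 43291, 89349, 102464, 55449, 24007 and 63116. The ranges of every pair of neighbours in that order overlapped. Within libraries, mt-Nd1 stood above mt-Nd2 in 6 of 6 and mt-Nd5 above mt-Nd6 in 6 of 6, while mt-Nd4 stood above mt-Nd1 in 3 of 6. mt-Nd2 was above mt-Nd4l and mt-Nd4l above mt-Nd5 in 4 of 6 each, and mt-Nd6 above mt-Nd3 in 5 of 6.

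**Figure D1:**
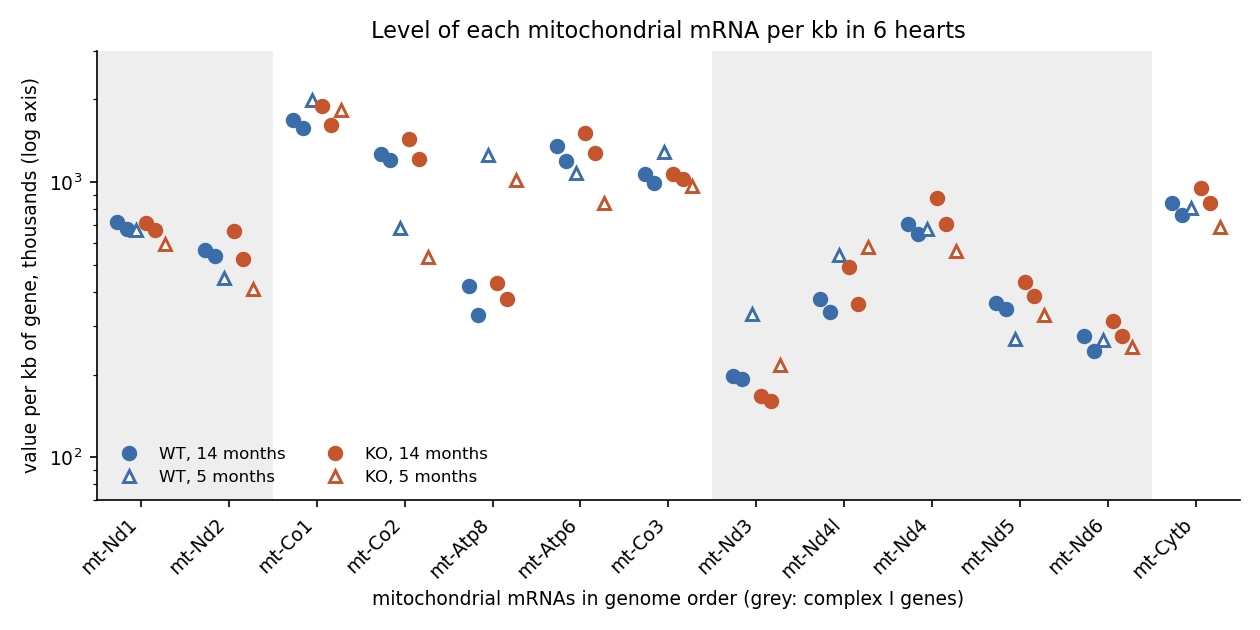
Value per kb of gene length (in units of 1000, log axis) for the 13 mitochondrial mRNAs in genome order, with 1 point per library, blue for WT, orange for KO, filled circles for 14 months and open triangles for 5 months. The 7 complex I genes (grey) lie below mt-Co1 in every library, and mt-Nd3 has the lowest mean.

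Position along the chromosome did not order the levels. mt-Nd3 and mt-Nd4l are neighbours on the same strand and had means of 211194 and 447927 per kb. mt-Nd4l and mt-Nd4 overlap and are known to remain on 1 RNA. mt-Nd4l had 376745, 338285 and 541730 per kb in WT-1, WT-2 and WT-3 and mt-Nd4 706337, 648680 and 673446. In KO-1, KO-2 and KO-3 mt-Nd4l had 490323, 361122 and 579359 per kb and mt-Nd4 874161, 704830 and 563720, so mt-Nd4 was higher in every library except KO-3. The minus-strand mt-Nd6 had rank 6 of the 7. All 7 genes were below mt-Co1, mt-Atp6 and mt-Co3 in mean level per kb. A length correction that takes off a 200-base fragment raised mt-Nd4l to rank 1 and mt-Nd3 to rank 5. mt-Nd4 then had rank 3, mt-Nd2 rank 4 and mt-Nd5 rank 7, while mt-Nd1 and mt-Nd6 kept ranks 2 and 6. The order of the genes, with its highest and its lowest, thus rests on how length is counted.

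Between KO and WT none of the 7 genes passed the threshold of an adjusted p of 0.05 in limma fitted on log2(value + 1) with age as a covariate, where 0 of 13823 genes tested did (0%). At an unadjusted limma p under 0.05 there was 1 member, mt-Nd3, beside 6.08% of all genes, and limma-voom also called 0 members and 0 genes. limma-voom is made for counts, which these values are not. In all 7 genes the libraries of the genotypes overlapped; of all genes 2.88% lay wholly higher and 2.89% wholly lower in KO. Their median difference was 0.06 log2, beside −0.02 over all genes. In the text that follows a difference is the fitted log2 value of KO minus WT, or of 5 minus 14 months, with its limma standard error (SE).

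mt-Nd1 encodes the subunit that, with matrix-arm subunits, forms the ubiquinone channel. WT libraries had 682918, 646455 and 638764, against 680116, 639801 and 568359 in KO. The 5-month KO library was lowest, and the other 5 lay close together. KO differed from WT by −0.06 (SE 0.13, limma adjusted p = 0.897, 95% interval −0.37 to 0.24).

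mt-Nd2, mt-Nd4 and mt-Nd5 encode the antiporter-like subunits of the membrane arm, which take part in proton pumping. mt-Nd2 reached 589638, 559188 and 467441 in WT, against 687880, 544335 and 425063 in KO. KO-1 was highest and both 5-month libraries were lowest, and the genotype difference was 0.02 (SE 0.15, limma adjusted p = 0.979, 95% interval −0.33 to 0.36). mt-Nd4 reached 973332, 893881 and 928009 in WT, against 1204590, 971256 and 776807 in KO. The KO libraries spanned the whole WT range, with a difference of 0.06 (SE 0.17, limma adjusted p = 0.930). By replicate number, which was not taken as pairing, mt-Nd4 stood at 0.31 and 0.12 in KO against WT at 14 months. At 5 months it stood at −0.26.

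mt-Nd5 reached 665758, 629538 and 489196 in WT, against 788501, 704690 and 599672 in KO. By replicate number, which was not taken as pairing, KO stood above WT by 0.24, 0.16 and 0.29. The fitted difference of 0.23 (SE 0.13) did not pass (limma adjusted p = 0.745, 95% interval −0.07 to 0.54). The 5-month libraries were the lowest of each genotype, and the groups overlapped.

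mt-Nd3, mt-Nd4l and mt-Nd6 encode the small subunits near the joint of both arms; a loop of the mt-Nd3 protein is known to move between the active and the resting enzyme. mt-Nd4l reached 111893, 100471 and 160894 in WT, against 145626, 107253 and 172070 in KO. The 5-month libraries were highest in each genotype, and the genotype difference was 0.19 (SE 0.15, limma adjusted p = 0.758). Leaving out 1 library moved it between 0.0510 (without KO-1) and 0.30 (without KO-2). mt-Nd6 reached 143122, 126536 and 138924 in WT, against 162214, 142880 and 130752 in KO, a difference of 0.09 (SE 0.14, limma adjusted p = 0.861) that lay between 0.0119 (without KO-1) and 0.18 (without WT-3 or KO-3) when 1 library was left out. KO-1 was highest for mt-Nd6, and the other libraries of both genotypes mixed.

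mt-Nd3 reached 68887, 67274 and 115885 in WT, against 58066, 55754 and 75107 in KO. WT-3 stood far above the rest. By replicate number, again not taken as pairing, KO minus WT was −0.25, −0.27 and −0.63. The fitted difference was −0.38 (SE 0.13, 95% interval −0.69 to −0.08), with a limma adjusted p = 0.745. Scaled to the nuclear sum mt-Nd3 stood at −0.28, beside 0.34 for mt-Nd5 and 0.30 for mt-Nd4l. With quantile normalization mt-Nd3 stood at −0.11, beside 0.33 for mt-Nd4l and 0.33 for mt-Nd6, and no member passed under either.

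**Figure D2:**
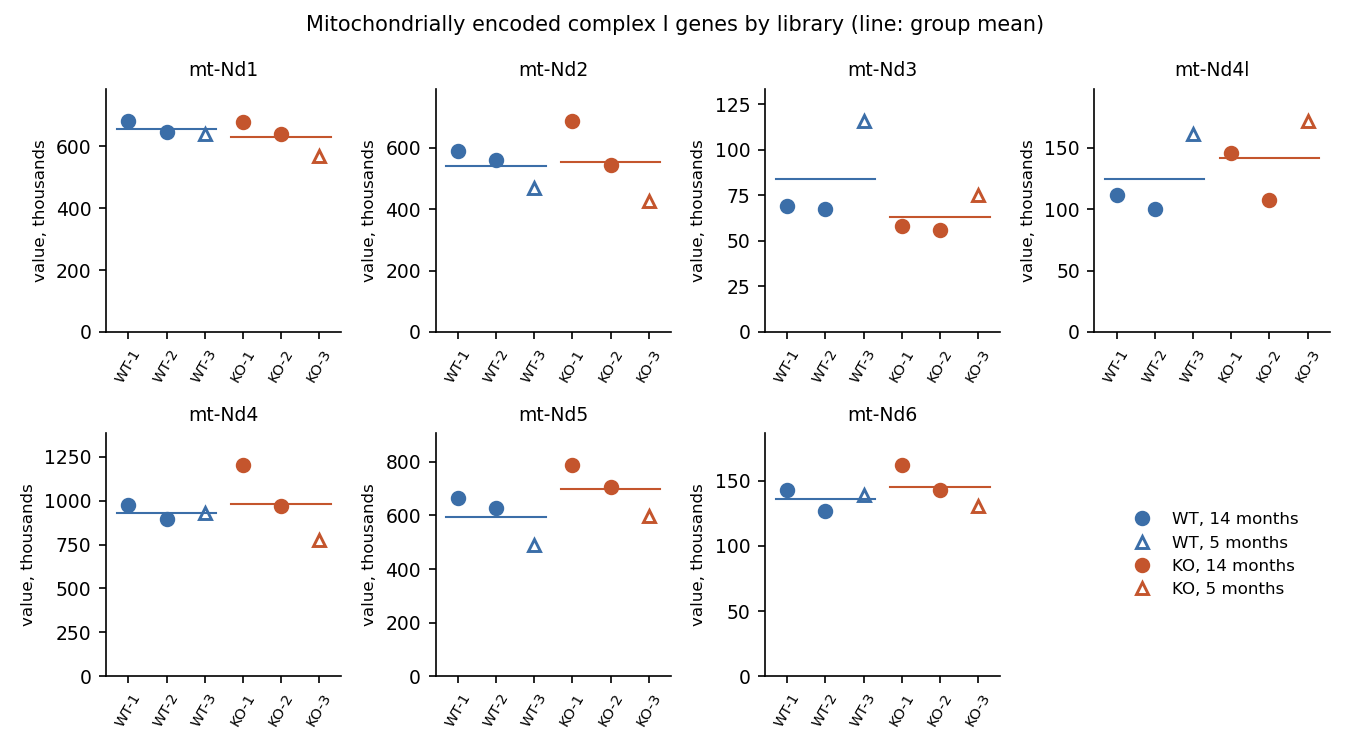
Value of each mitochondrially encoded complex I gene (in units of 1000) in the 6 libraries, blue for WT, orange for KO, filled circles for 14 months, open triangles for 5 months and lines for the mean of each genotype. KO and WT points overlap in each panel, while the triangles are high for mt-Nd3 and mt-Nd4l and low for mt-Nd2 and mt-Nd5.

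mt-Nd3 has a nuclear copy in the table, so its value is uncertain by the part of reads given to either. Gm28438, an unprocessed pseudogene on chromosome 1 (24612775 to 24613119, minus strand), matches the first 345 bases of mt-Nd3 with 1 difference, T3C (counted from 1 at the first base of mt-Nd3: mt-Nd3 has T and the copy C). The lines give the first 30 bases of each, with the differing base in capitals.
mt-Nd3, chrM:9459-9488, plus strand: atTaacctgtacactgttatcttcattaat
Gm28438, chr1:24613090-24613119, minus strand: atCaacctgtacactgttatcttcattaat
A read that lies within the first 345 bases and does not cover position 3 cannot be placed by sequence. Gm28438 was listed at 34.1, 0 and 789 in the WT libraries, against 5889, 5039 and 830 for KO. Of the sum of both genes it made up 0.0495, 0 and 0.676% for WT, against 9.21, 8.29 and 1.09% for KO. The 14-month KO libraries thus gave the copy a larger part than any other library. With the copy's value added to mt-Nd3, the genotype difference was −0.29 in place of −0.38 (limma adjusted p = 0.745).

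Gm28439 (chromosome 1, 24611535 to 24612410) is identical to the first 876 bases of mt-Nd4. It and Gm10222, the copy of mt-Nd4l, were not analysed here. In all, 5 copies in the table shared 31-base words with a complex I member, and apart from Gm28438 none exceeded a value of 17.2 in any library. Reads shared with copies that were not analysed make mt-Nd4l and mt-Nd4 uncertain too.

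In each genotype the 5-month library was replicate 3, so age cannot be told apart from anything else those libraries share. Between 5 and 14 months, with genotype as a covariate, mt-Nd3 and mt-Nd4l were higher at 5 months and no member passed as lower. Beside these 2 of 7, 33.7% of all 13823 genes passed, 16% higher and 17.7% lower. Of the 7 genes, 2 lay wholly higher in both 5-month libraries than in the 4 of 14 months, against 25% of all genes, and 3 wholly lower, against 25.7%. At an unadjusted limma p under 0.05 there were 4 members, beside 44.7% of all genes. With 7 members, shares this near to those of all genes are no result about them.

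mt-Nd3 was 0.58 higher at 5 months (SE 0.14, limma adjusted p = 0.0157, 95% interval 0.26 to 0.91), and 0.53 higher with its nuclear copy added (limma adjusted p = 0.0300). mt-Nd4l was 0.53 higher (SE 0.16, limma adjusted p = 0.0390, 95% interval 0.15 to 0.91). Its copy Gm10222 was not analysed, so no difference with that copy added can be given, and the part of shared reads was not tested. The means at 5 and 14 months were 95496 and 62495 for mt-Nd3 and 166482 and 116311 for mt-Nd4l. Within the genotypes mt-Nd3 stood at 0.77 in WT and 0.40 in KO, and mt-Nd4l at 0.60 and 0.46. Against replicate 1 alone, which shares the Y-linked signal of replicate 3, mt-Nd3 stood at 0.75 in WT and 0.37 in KO and mt-Nd4l at 0.52 and 0.24.

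Both calls depend on the libraries and on the scaling. With quantile normalization mt-Nd3 turned to −0.23 (limma adjusted p = 0.127) and mt-Nd4l stood at 0.15 (limma adjusted p = 0.452). That scaling keeps only ranks, so a gene's value there also depends on which other genes rank next to it. Without the trend and robust options mt-Nd4l did not pass (limma adjusted p = 0.0717). Without WT-1 or without WT-2 neither gene passed: mt-Nd3 was at 0.57 and 0.55 (limma adjusted p = 0.0682 and 0.0571) and mt-Nd4l at 0.55 and 0.49 (limma adjusted p = 0.101 and 0.111). Without WT-3 (0.46, limma adjusted p = 0.105) or KO-2 (0.45, limma adjusted p = 0.110) the call of mt-Nd4l was also lost.

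The other 5 genes had lower fitted levels at 5 months without passing. mt-Nd2 differed by −0.41 (SE 0.16, limma adjusted p = 0.0802), mt-Nd5 by −0.36 (SE 0.14, limma adjusted p = 0.0852) and mt-Nd4 by −0.24 (SE 0.18, limma adjusted p = 0.32). For mt-Nd1 the difference was −0.14 (SE 0.14, limma adjusted p = 0.487) and for mt-Nd6 −0.09 (SE 0.15, limma adjusted p = 0.677). mt-Nd1, mt-Nd2 and mt-Nd5 were the genes that lay wholly lower at 5 months. Leaving out WT-3 or KO-3 leaves 1 library at 5 months, so those fits hold no spread within that age. Without WT-3, mt-Nd2 stood at −0.53 and mt-Nd4 at −0.48, and without KO-3, mt-Nd5 stood at −0.40. mt-Nd4 spanned −0.48 to −0.00737 over the 6 fits without 1 library, with the value nearest to 0 without KO-3.

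**Figure D3:**
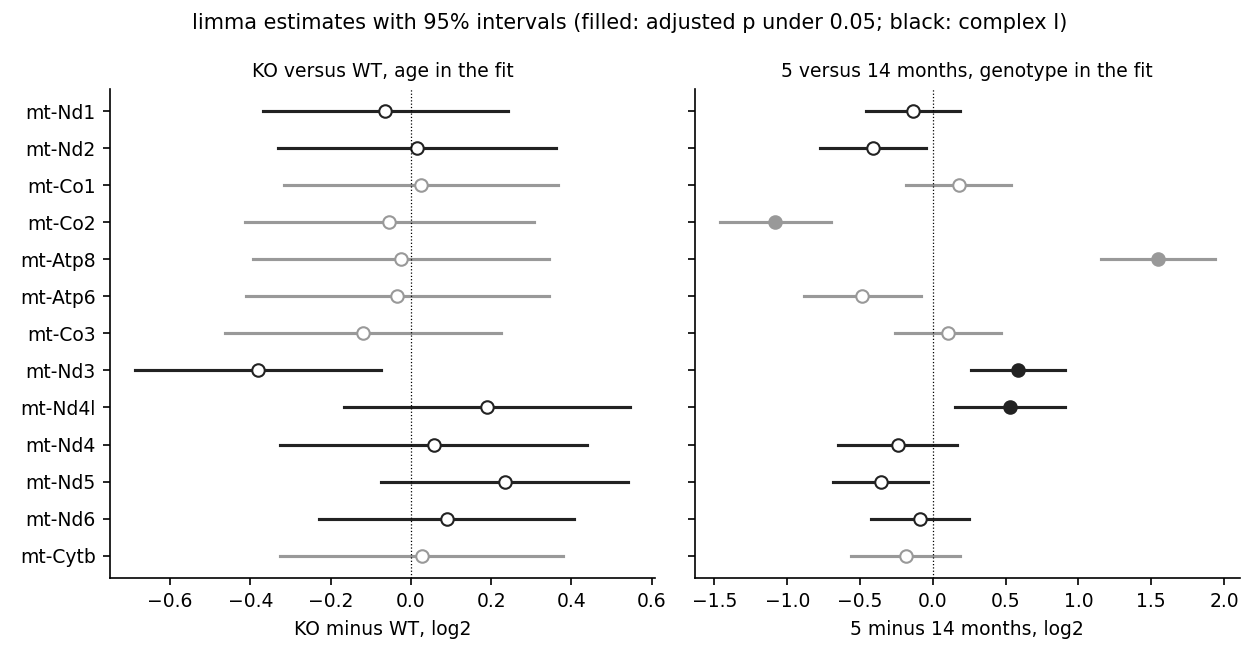
limma estimates (log2) with 95% intervals for KO minus WT, left, and 5 minus 14 months, right, for the mitochondrial mRNAs in genome order, black for complex I and grey for the rest. No point is filled on the left, and on the right mt-Nd3 and mt-Nd4l are the filled complex I genes, at 0.58 and 0.53.

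Scaling moved the age differences. The summed nuclear value was 14.1 in WT-3 against 10.9 to 11.6 in the other libraries (units of 1e6). When libraries were scaled to that sum, the median of all genes moved from −0.02 to −0.22 log2, and calls over all genes split into 1233 higher and 3403 lower in place of 2216 and 2447. Of the 7 genes, 5 then passed: mt-Nd3 higher (0.39) and mt-Nd1 (−0.33), mt-Nd2 (−0.61), mt-Nd4 (−0.44) and mt-Nd5 (−0.56) lower, while mt-Nd4l (0.33) did not.

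Length moved with the age difference in the whole table. The 3 shortest mitochondrial mRNAs, mt-Atp8 (204 bases), mt-Nd4l (297) and mt-Nd3 (348), had the 3 highest differences at 5 months, with mt-Atp8 at 1.55 (SE 0.17, limma adjusted p = 0.000814). The next in length, mt-Nd6 (519 bases), stood at −0.09. Among nuclear protein-coding genes the median difference was 1.10 for the 26 with a longest transcript under 500 bases and 0.75 for the 451 from 500 to 1000. It was 0.30 for the 2046 from 1000 to 2000, −0.02 for the 5414 from 2000 to 4000 and −0.18 for the 5414 longer ones. Its part in the differences of mt-Nd3 and mt-Nd4l was not tested.

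**Figure D4:**
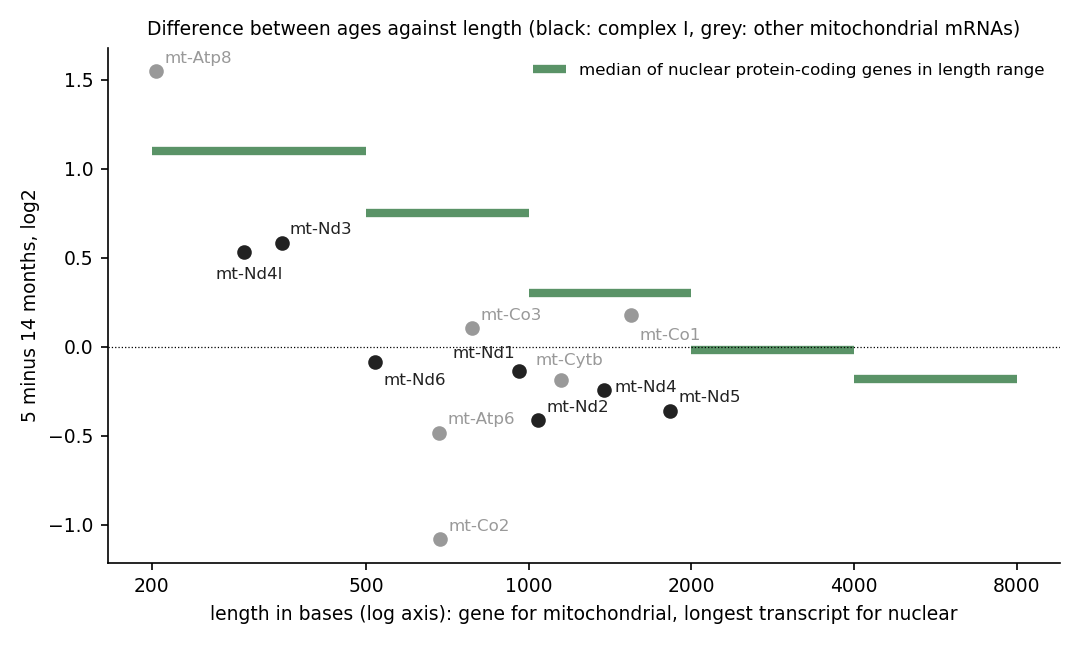
Difference between 5 and 14 months (log2) against length in bases (log axis) for each mitochondrial mRNA, black for complex I and grey for the others, with green bars for the median of nuclear protein-coding genes by length range (the shortest and longest ranges are open-ended and drawn to the first and last tick). mt-Nd3 and mt-Nd4l lie above 0 and the 5 longer complex I genes below it, and the green bars step down from 1.10 to −0.18.

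Of the summed cell type markers, only the endothelial ones lay wholly apart between the ages. Of all genes 25.7% lay wholly lower at 5 months. The summed endothelial markers (5 of 5 in the table, none at 0) were 8062 and 8514 at 5 months and 10930 to 13841 at 14 months. Cardiac muscle markers summed to 512546 in KO-3 and 987987 in WT-3 against 478894 to 546390 at 14 months. Fibroblast sums (9959 and 15593 against 13842 to 16190) and macrophage sums (1741 and 2600 against 2333 to 3148) overlapped. Erythroid markers summed to 66820 in WT-1 and to 2727 to 19386 in the other libraries. Adipocyte markers summed to 1412 and 2083 in KO at 14 months, against 562 and 462 in WT, and to 473 and 780.0 at 5 months. Smooth muscle markers summed to 1982 in KO-3 and to 3447 to 5192 in the others. In these bulk samples fewer cells of a type and less RNA per cell cannot be told apart, and the part of cell make-up in the age differences was not tested.

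The genotype difference did not differ between ages past the threshold in any of the 7 genes, where limma called 287 of all genes (2.08%; 0.883% higher and 1.19% lower). At an unadjusted limma p under 0.05 there was 1 member, beside 23.2% of all genes. It was mt-Nd3, whose genotype difference at 5 months minus that at 14 months was −0.37 (SE 0.13, limma adjusted p = 0.153). For mt-Nd4 this was −0.47 (SE 0.20, limma adjusted p = 0.225) and for mt-Nd5 0.09 (SE 0.16, limma adjusted p = 0.770). limma-voom called 0 members as well, with 2 at an unadjusted p under 0.05.

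The nuclear genes of the same complex were read in the same fits, in which 16% of all genes were called higher at 5 months and 17.7% lower. Of the 7 core subunits of the matrix arm, all tested, 5 were called higher at 5 months and 0 lower, with a median of 0.74. Ndufs8, which carries iron-sulphur clusters, stood at 1.46 (SE 0.14, limma adjusted p = 0.000582), with 1584, 1519 and 5152 in WT, against 1561, 1532 and 3510 in KO. Of 29 supernumerary subunits tested (30 listed), 25 were called higher and 0 lower, with a median of 1.18. Ndufb2, the one with the smallest p, was at 2.02 (SE 0.12, limma adjusted p = 9.91e-05), and Ndufa10, with the highest value, was at 0.31 (SE 0.18, limma adjusted p = 0.212). The 17 assembly factors tested (18 listed) had 12 called higher and 0 lower, with a median of 0.72. Among them Ndufaf8 had the smallest p, at 1.54 (SE 0.17, limma adjusted p = 0.000833), and Ndufaf4 the highest value, at 0.16 (SE 0.12, limma adjusted p = 0.327).

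The 7 mitochondrial genes had a median of −0.14 in the same fit, beside −0.02 over all genes. The longest transcripts of the supernumerary genes had a median of 918 bases those of the core genes 1661 bases and those of the assembly factors 2387 bases. Nuclear genes in the ranges that hold these lengths had medians of 0.75, 0.30 and −0.02, below the 1.18, 0.74 and 0.72 of the lists. Whether the nuclear and mitochondrial genes differ beyond length was not tested. Between KO and WT 0 of these nuclear genes passed. Below WT were 7 of 7 core, 29 of 29 supernumerary and 16 of 17 assembly genes. Their medians were −0.19, −0.22 and −0.11, beside −0.02 over all genes. The smallest p of each list belonged to Ndufs7 (−0.28), Ndufb2 (−0.36) and Dmac1 (−0.36), each with a limma adjusted p of 0.745, and Ndufaf4 was the assembly gene above WT (0.0539). limma called 0 of all genes there, and 841 had an unadjusted p under 0.05. Nuclear genes shorter than 500 bases had a median of −0.25 in that comparison and those over 4000 bases 0.05. KO minus WT was lower for replicate 3 than for the others in 7 of 7 core and 29 of 29 supernumerary genes. The same held in 15 of 17 assembly genes. Medians of this interaction were −0.53, −0.47 and −0.27, beside −0.05 over all genes, with 1, 3 and 0 genes called lower. The list medians below WT thus depend in part on WT-3 and KO-3. The counts without these libraries were not tested, and the share of all genes below WT is not given here.

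**Figure D5:**
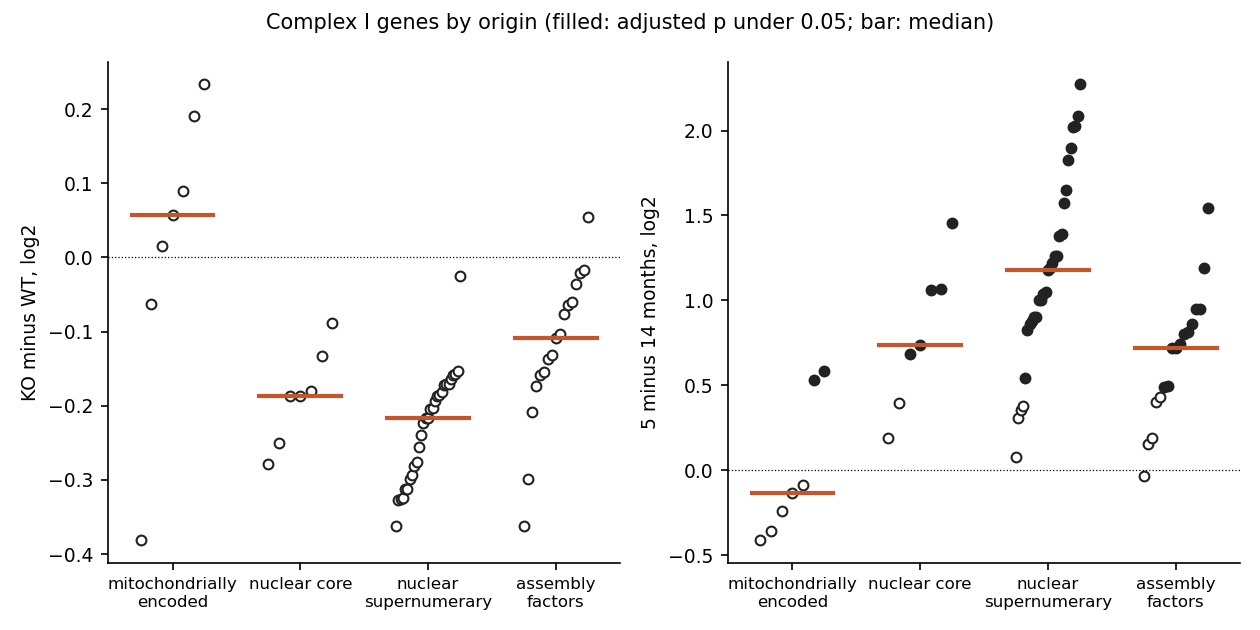
Fitted difference (log2) of each complex I gene by origin, KO minus WT on the left and 5 minus 14 months on the right, with filled points for an adjusted p under 0.05 and bars for medians. On the right the median is −0.14 for the 7 mitochondrial genes and 0.74, 1.18 and 0.72 for nuclear core, supernumerary and assembly genes.

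Genes that make and keep mitochondrial RNA were read as lists, beside the same 16% higher and 17.7% lower over all genes. Of 11 genes of mitochondrial transcription, 4 were called higher and 0 lower at 5 months. The smallest p was that of Mrpl12, a ribosomal protein that also binds the mitochondrial RNA polymerase, at 1.07 (SE 0.11, limma adjusted p = 0.000764). Of 19 tested genes of RNA processing and stability (20 listed), 4 were called higher and 3 lower. Hsd17b10, a subunit of mitochondrial RNase P, was at 0.97 (SE 0.12, limma adjusted p = 0.00125), and Grsf1, an RNA granule protein with the highest value of the list, at −0.21 (SE 0.11, limma adjusted p = 0.194). Among 11 genes of mitochondrial DNA maintenance 4 were called higher and 0 lower, with the single-strand binding protein Ssbp1 at 0.80 (SE 0.13, limma adjusted p = 0.00329) and the polymerase gene Polg at 0.22 (SE 0.16, limma adjusted p = 0.328). The counts of the RNA processing list are near those shares and are no result about it. Of 8 regulators of mitochondrial biogenesis 1 was called higher and 1 lower, which is also near those shares and no result about the list. Its median was −0.13. Esrra, a nuclear receptor that drives respiratory genes, was the higher one at 0.63 (SE 0.13, limma adjusted p = 0.00791). Ppargc1a, with the highest value of that list, stood at 0.18 (SE 0.21, limma adjusted p = 0.550).

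In the genotype comparison 0 genes of these lists passed. Dguok, a mitochondrial nucleoside kinase, was at −0.29 (SE 0.16, limma adjusted p = 0.745). Slirp, which keeps mitochondrial mRNAs stable together with Lrpprc, was at −0.35 (SE 0.13, limma adjusted p = 0.745), with 549, 609 and 365 in WT, against 505, 456 and 256 in KO. Ppargc1b, a coactivator of mitochondrial biogenesis, was at 0.56 (SE 0.16, limma adjusted p = 0.745), with 215, 226 and 154 in WT, against 260, 346 and 264 in KO. Ppargc1a, its relative and the highest-valued gene of that list, stood the other way at −0.36 (SE 0.20, limma adjusted p = 0.745), with 3213, 1794 and 2597 in WT, against 1710, 1920 and 2149 in KO. The medians of the lists lay between −0.06 and 0.06, beside −0.02 over all genes.

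The 7 genes did not vary as 1 unit over the 6 libraries. Correlations of log2 values, given as a description over 6 libraries that share their scaling, were 0.87 for mt-Nd1 with mt-Nd2, 0.89 for mt-Nd2 with mt-Nd4 and 0.91 for mt-Nd4 with mt-Nd6. They were −0.94 for mt-Nd3 with mt-Nd5 and −0.16 for the overlapping mt-Nd4l with mt-Nd4. Genes outside the mitochondrial genome most like the mean log2 level of the 7 genes by Pearson's r over 6 libraries were Tapbpl (0.97), Syt17 (0.97), Dbh (0.96), Usp43 (0.96) and Kdm4c (0.96), picked from all genes tested.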

How the data were processed

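RNA sequencing of 6 hearts was analysed. Per the labels' protocols, Trizol RNA went into Illumina libraries made from 1 ug of total RNA. Salmon 1.5.2 and mm10 were used, per the submitters' processing notes; how genes were summed and scaled is not given in the sources used here. Each gene carries 1 signal value per library as deposited, not a whole number, with median ratios to the geometric mean of 1.00 to 1.01 in every library. Of 20254 gene identifiers 20122 matched GENCODE M21, and 108 broken lines were left out. limma 3.58.1 (R 4.3.3) was fitted on log2(value + 1) of the whole table, with trend and robust options, for 13823 genes at 10 or more in at least 3 libraries, and adjusted by Benjamini-Hochberg; it was tested on simulated data. Alternatives changed the pseudocount, filter, covariate and scaling (TMM factors, nuclear sum, quantiles), used limma-voom, added nuclear copies, blocked on replicate number or left out 1 library. Shared words were 31 bases. Named genes were the 7 members, the highest-valued and the smallest-p gene of each nuclear list, the closest copies and the 5 most similar genes. A gene that this rule names is not reported here. Members and lists were chosen with earlier results of these data known.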

Additional observations from a re-analysis of the deposited data

Results flagged for a closer look

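Gm28438, the nuclear copy of mt-Nd3 and outside the 7 genes, was listed at 5889 in KO-1 and 5039 in KO-2, above the highest WT value of 789 in WT-3. KO-3 had 830. WT-1 had 34.1 and WT-2 was listed at 0. Summed with mt-Nd3 this gave 68921, 67274 and 116674 for WT, against 63956, 60793 and 75937 for KO.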

How the results depend on the processing

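The 7 genes had 0 calls between genotypes and in the interaction under every alternative run. With the replicate block the genotype comparison called 0 genes and 0 members, and mt-Nd3 stood at −0.38 (limma adjusted p = 0.886). Same-number WT and KO libraries correlated after removal of genotype means (0.390, 0.383 and 0.617), as did the crossed 14-month pairs (0.382 and 0.369), and these deviations hold the ages. Within 14 months the difference of replicates 1 and 2 correlated at 0.0147 between WT and KO, so the numbers were not taken as pairing. In the 14-month libraries alone it called 14 genes and 0 members, and leaving out 1 library gave 0 to 5 genes. mt-Nd1 between genotypes was 0.0428 when scaled to the nuclear sum; leaving out 1 library gave −0.10 to 0.0917 for mt-Nd2 and −0.0766 to 0.21 for mt-Nd4. The number of members called by age was 5 when scaled to the nuclear sum, 1 with quantile normalization, 1 without trend and robust options and 0 to 3 when 1 library was left out. Quantile normalization, which keeps only ranks, gave age differences of 0.21 for mt-Nd1, 0.0362 for mt-Nd2, −0.23 for mt-Nd3 and 0.15 for mt-Nd5, and called mt-Nd6 lower (−0.61). Leaving out 1 library gave −0.22 to 0.0459 for mt-Nd6 by age. Interaction calls over all genes were 287, and 4 without the filter, 741 when scaled to the nuclear sum, 12 with quantile normalization, 7 without trend and robust options, 134 with limma-voom and 13 to 234 when 1 library was left out (without WT-3 or KO-3 it could not be fitted). With a 200-base fragment taken off the length, ranks by level were 4 for mt-Nd2, 5 for mt-Nd3, 1 for mt-Nd4l, 3 for mt-Nd4 and 7 for mt-Nd5; without 1 library mt-Nd1 and mt-Nd4 ranked 1 to 2. The summed share was 33.7% when taken over mitochondrial mRNA values. Leaving out libraries from levels and shares was added after seeing the data. The causes of these changes were not tested.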

Other observations

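Nuclear copies of mitochondrial genes outside complex I, among them copies of mt-Co1, mt-Co2 and mt-Co3, also had values that differed between libraries. The copy with the highest value in any library, Gm28661, is given here. Gm28661, a copy of mt-Co2, was listed at 0, 0 and 533913 in WT, against 0, 18.4 and 368384 in KO. mt-Co2 itself, a complex IV subunit, had 866196, 823386 and 465936 in WT, against 977324, 833150 and 364880 in KO, an age difference of −1.08 (SE 0.17, limma adjusted p = 0.00259). The sums of mt-Co2 and its copies were 866226, 823411 and 999869 in WT, against 977351, 833196 and 733281 in KO, and the ages overlapped.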
